A study of Homo sapiens with 4 samples.

Results

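The genes described here are those of the unfolded protein response and of the integrated stress response, the programmes by which a cell answers misfolded protein in the endoplasmic reticulum (ER) and shortage of amino acids. A list of 39 gene symbols was given, and all 39 were found among the 25283 genes of the deposited count table. They were divided by role into 16 ER chaperones and folding enzymes, 4 genes of ER-associated degradation, 8 stress sensors and transcription factors, 10 targets of the transcription factor ATF4, and the antisense RNA VLDLR-AS1, which has no established role in either response.

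RNA was sequenced from 4 libraries of cells that the labels call neurons, made from the established human embryonic stem cell line H1 by way of neural progenitors and a maturation medium. The control group of 2 libraries carried an empty vector, and the U1_OE group of 2 libraries a lentiviral vector for U1 snRNA, a small nuclear RNA whose particle binds 5′ splice sites. The treatment lasted 36 hours. The titles call the control samples WT, and the protocol text mentions the overexpression vector for the control samples as well. The groups therefore rest on the titles and genotype labels, and "with the empty vector" below means the control libraries. U1 snRNA itself was not analysed here. The sources used here do not give the promoter of the transgene. No label states separate cultures for the 2 libraries of a group, so p-values reflect only the spread among these libraries, which may be technical.

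In the unfolded protein response, 3 sensors in the ER membrane, IRE1 (ERN1), PERK (EIF2AK3) and ATF6, are held in check by the chaperone BiP (HSPA5) and act when unfolded protein draws it away. ATF6 and spliced XBP1 then raise the transcription of chaperones and of degradation factors. PERK, and in amino acid shortage GCN2 (EIF2AK4), phosphorylate the initiation factor eIF2, which slows translation in general while ATF4 protein is made, and ATF4 turns on genes of amino acid synthesis and transport and the factor CHOP (DDIT3). Splicing of XBP1, cleavage of ATF6, phosphorylation of eIF2 and translation of ATF4 are not seen in counts per gene, so the values below are transcript levels only.

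The sequences shown first are the stretches before the RefSeq start of the members that hold the DNA elements through which ATF6, XBP1 and ATF4 act. RefSeq promoter windows on GRCh38.p14, from 250 bases before to 50 bases after each start, were matched for 36 of the 39 members by symbol. PDIA3, SHMT2 and SLC7A11 were not matched. On both strands, the ER stress element (ERSE, which is CCAAT, any 9 bases and CCACG) was found in 6 of the 36 windows, against 0.0806% of all 27305 windows of this length. The shorter ERSE-II (ATTGG, any 1 base and CCACG) was found in 3 of the 36, against 0.0549% of all. Of the 9 members with either element, 7 are chaperones or folding factors. The other two are HERPUD1, of ER-associated degradation, and the transcription factor XBP1. The stretches are printed 5′ to 3′ on the strand of the gene, with the fixed letters of each element in capitals. Some GENCODE v29 transcripts begin farther out than the RefSeq start: the sites of HSP90B1, ASNS and CHAC1 lie in annotated exons of these genes and are shown without more flank, and those of CANX and CRELD2 lie within the span of the gene.
HSPA5, chr9:125241381-125241543, minus strand: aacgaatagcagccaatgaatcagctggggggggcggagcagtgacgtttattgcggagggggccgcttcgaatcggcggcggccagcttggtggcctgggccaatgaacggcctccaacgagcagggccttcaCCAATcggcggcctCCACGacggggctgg
HSP90B1, chr12:103930211-103930239, plus strand: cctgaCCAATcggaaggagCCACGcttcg
HSP90B1, chr12:103930316-103930344, plus strand: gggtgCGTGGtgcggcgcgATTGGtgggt
CALR, chr19:12938374-12938412, plus strand: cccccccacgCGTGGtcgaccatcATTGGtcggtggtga
CANX, chr5:179698768-179698806, plus strand: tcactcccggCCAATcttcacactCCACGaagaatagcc
CRELD2, chr22:49918544-49918582, plus strand: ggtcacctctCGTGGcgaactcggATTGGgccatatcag
XBP1, chr22:28800598-28800626, minus strand: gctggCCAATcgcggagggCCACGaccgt
HYOU1, chr11:119057264-119057403, minus strand: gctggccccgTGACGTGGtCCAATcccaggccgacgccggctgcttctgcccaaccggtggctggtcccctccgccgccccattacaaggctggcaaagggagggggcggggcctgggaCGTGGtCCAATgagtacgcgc
SDF2L1, chr22:21642104-21642134, plus strand: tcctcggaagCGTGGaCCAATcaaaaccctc
HERPUD1, chr16:56931955-56932045, plus strand: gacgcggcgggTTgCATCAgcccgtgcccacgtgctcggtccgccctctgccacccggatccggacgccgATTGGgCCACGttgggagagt

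In HSPA5, printed with more flank than the other genes, the only exact match lies 66 to 48 bases before the start. Near matches of the element were not searched for. HSP90B1 has 2 elements in opposite orientations, 194 to 176 and 89 to 71 bases before the start. HYOU1 has 2 copies of ERSE-II, and the one farther from the start overlaps the core of the unfolded protein response element (UPRE, TGACGTGG), which was found in 0.795% of all windows and in no other member. The C/EBP-ATF response element to which ATF4 binds (CARE, searched as TGATG, any 1 base and AA) was found in 4 members, HERPUD1, ASNS, CHAC1 and SLC3A2, against 3.67% of all windows. In HERPUD1 it stands 177 to 169 bases before the start, in the stretch that also holds ERSE-II. In SLC3A2 it lies after the start and is not printed. The capitals mark CARE in the ATF4 targets below. A match is a description of letters and not a bound site.
ASNS, chr7:97872463-97872481, minus strand: aggcaTGATGaAActtccc
CHAC1, chr15:40953256-40953274, plus strand: ctgccgTTgCATCActcct

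The members spanned a wide range of levels. Per kilobase of exon annotated in GENCODE v29, and averaged over the 4 libraries, CALR, the calcium-binding lectin chaperone calreticulin, was highest at 669 CPM per kilobase (CPM are counts scaled to a common library size, here with TMM factors). P4HB, a disulfide isomerase and subunit of collagen prolyl hydroxylase, followed with 420.5 and SERPINH1, the collagen chaperone HSP47, with 341 CPM per kilobase. The median was 85.0 CPM per kilobase for the chaperones, 7.23 for ER-associated degradation, 5.05 for sensors and transcription factors and 7.25 for ATF4 targets. Among the sensors and factors, ATF4 itself had 108 and XBP1 44.1 CPM per kilobase, whereas ERN1 had 0.530. SLC7A11, the cystine transporter, had 0.385 CPM per kilobase, the lowest level of any protein-coding member.

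**Figure D1:**
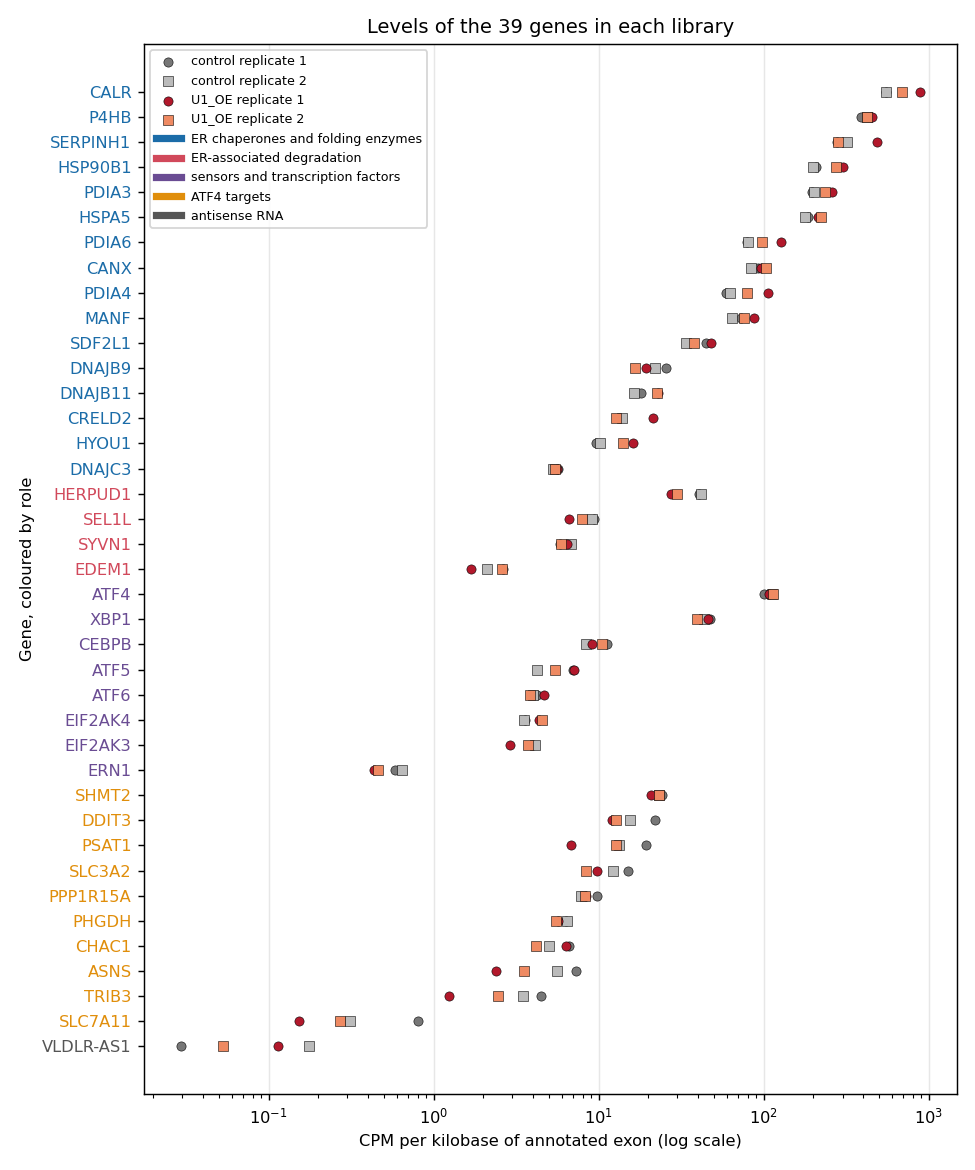
Level of each of the 39 genes in the 4 libraries, as CPM per kilobase of annotated exon on a log axis, with gene names coloured by role. Circles are replicate 1 and squares replicate 2 of control (grey) and U1_OE (red and orange). CALR, P4HB and SERPINH1 lead, and VLDLR-AS1 is lowest.

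The libraries held 16713528 to 19057447 counts after rounding. The labelled cell type was not borne out by its defining markers: of 14 neuronal markers 11 were among the measured genes, and 1 of them, TUBB3, reached 10 CPM in every library. The 11 had a summed level of 187 and 121 CPM for control against 289 and 361 CPM for U1_OE. TUBB3 made up most of it, with 159 and 104 CPM against 264 and 338 CPM, and was called higher by DESeq2 (adjusted p = 0.00134) but not by edgeR (adjusted p = 0.459). The other 10 summed to 27.5 and 17.1 CPM against 25.3 and 23.1 CPM, which overlap. DCX, of young neurons, had control levels of 0 and 0.111 CPM (0 and 2 counts) against 0 and 0.157 CPM in U1_OE (0 and 3 counts). RBFOX3, of mature neurons, had 0.294 and 0.166 CPM in controls (5 and 3 counts) against 0.123 and 0.0524 CPM in U1_OE cells (2 and 1 counts). Others were higher: SNAP25 had 6.77 and 5.53 CPM against 8.19 and 6.66 CPM, and SYT1 8.18 and 5.86 CPM against 3.63 and 7.29 CPM. MAP2 had 4.94 and 2.65 CPM against 6.59 and 4.88 CPM. Of 7 tested neuronal markers 5 had positive log2 fold changes and 2 negative ones, against 49.3% positive over all tested genes. Of 6 neural progenitor markers 5 were measured, and 1, NES, reached 10 CPM in every library. NES had 24.3 and 30.0 CPM for control against 39.4 and 44.5 CPM for U1_OE, and PAX6 19.7 and 13.5 CPM against 5.60 and 12.3 CPM. Of 5 astrocyte markers 4 were measured, and 0 reached 10 CPM in every library. SLC1A3, the highest of them, had 6.83 and 18.7 CPM against 25.6 and 20.3 CPM. Of 5 microglia and blood markers 4 were measured, and 1, CD68, reached 10 CPM in every library. CD68 had 48.8 and 40.9 CPM for control against 69.3 and 80.8 CPM for U1_OE, and was not called (adjusted p = 0.459 by edgeR and 0.0736 by DESeq2). All 15 mesenchymal markers reached 10 CPM in every library, and their summed level was 74023 and 85816 CPM for control against 90653 and 80538 CPM for U1_OE. The U1_OE libraries resembled each other with a Pearson r of 0.969, across the log2 values of 17317 genes, which are not independent replicates. U1_OE replicate 2 was closer to control replicates 1 and 2 (r = 0.976 and 0.973). U1_OE replicate 1 had r = 0.964 and 0.966 with them, and the control libraries had r = 0.979 with each other. In bulk RNA, fewer cells of a type and less RNA per cell cannot be told apart.

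The question was whether U1 snRNA overexpression goes with a different level of these stress response genes. Most ER chaperones had higher mean levels in the U1_OE libraries, and every ATF4 target in the list had lower ones, but no single gene passed the test over all genes. The median log2 fold change was 0.31 (1.24-fold) over the 16 chaperones and -0.60 (0.660-fold) over the 10 ATF4 targets, against -0.0055 over all 17317 tested genes. It was -0.24 over the 4 degradation genes and 0.02 over the 8 sensors and factors, and the latter value was -0.013 when libraries were scaled by their size alone. All 39 members passed the filter on low counts.

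In the quasi-likelihood test of edgeR, adjusted over all tested genes by the Benjamini-Hochberg method, 0 of the 39 members lay under an adjusted p of 0.05, as did 0% of all tested genes. The lowest adjusted p among members was 0.459, and 12 of the 39 had an unadjusted p under 0.05, 7 higher and 5 lower in U1_OE. Over all tested genes that share was 9.08%, of which 4.36% were higher and 4.72% lower. DESeq2 also called 0 members, against 1.08% of 17440 genes, with 0.0503 as the lowest adjusted p, for HSP90B1. Of the 39 members, 36 differed by less than 2-fold and 3 by more, against 10.3% of all tested genes past 2-fold. The 3, ASNS, TRIB3 and SLC7A11, were each within 2-fold without control replicate 1, at log2 fold changes of -0.90, -0.89 and -0.52.

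**Figure D2:**
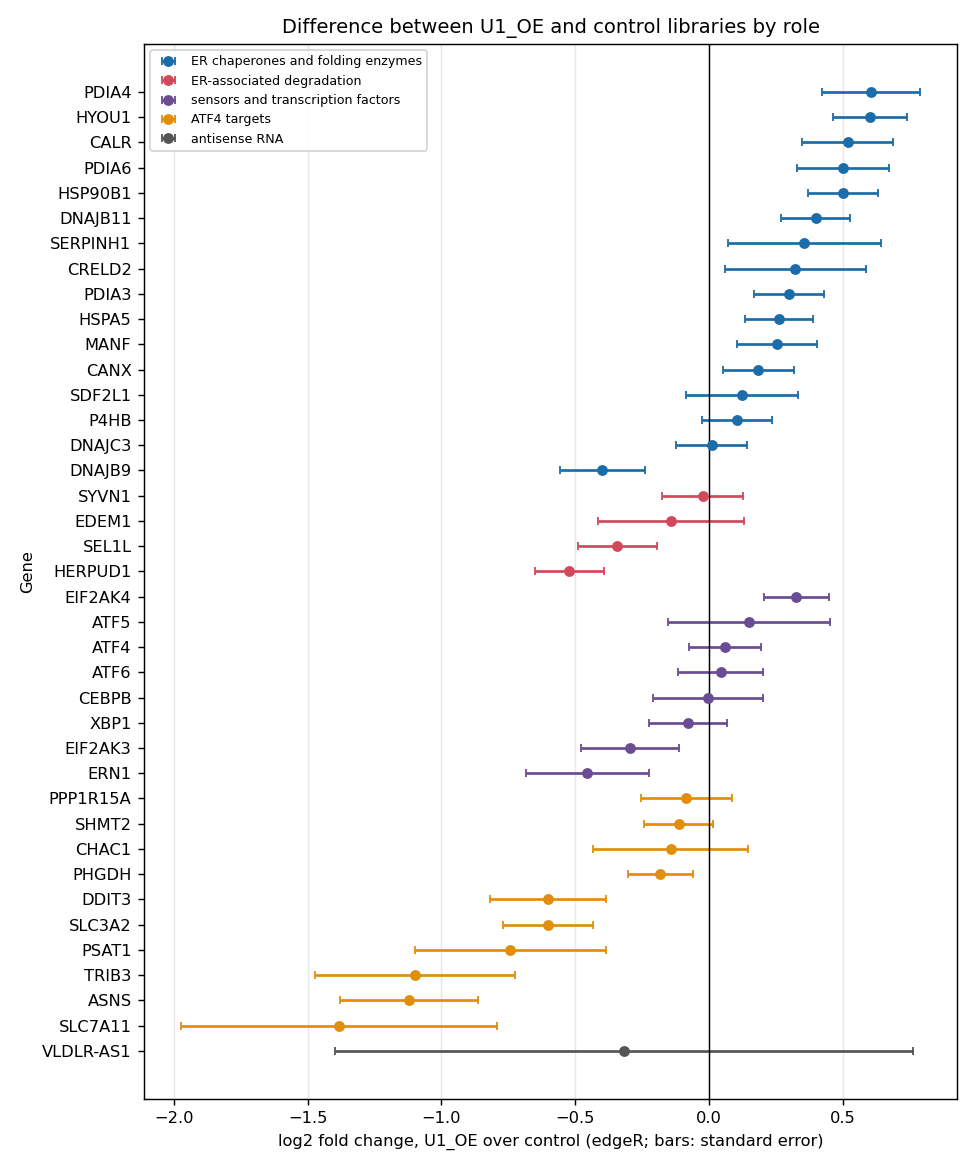
Log2 fold change of U1_OE over control for each of the 39 genes, grouped and coloured by role, with bars for the standard error of the edgeR fit (2 libraries per group). The 16 chaperones lie right of 0 except DNAJB9, and all 10 ATF4 targets lie left of 0.

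Among the ER chaperones and folding enzymes, the log2 fold change was positive in 15 of 16, against 49.3% of all tested genes. In 11 of them both U1_OE libraries lay above both control libraries, which was so for 19.7% of all tested genes, and in 1 both lay below, against 22% of all. HSPA5 (chromosome 9, 125234853 to 125241330, minus strand), the Hsp70 chaperone of the ER and the regulator of the 3 sensors, had 728 and 695 CPM with the empty vector against 837 and 869.5 CPM under U1 overexpression. The groups did not overlap, and the log2 fold change was 0.26 ± 0.13 (SE). HSP90B1 (chromosome 12, 103930107 to 103953645, plus strand), the ER paralog of Hsp90, had control levels of 969.9 and 931 CPM against 1413 and 1278 CPM in U1_OE. Its libraries agreed closely within groups, with a log2 fold change of 0.50 ± 0.13.

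In the calnexin cycle lectin chaperones hold new glycoproteins while PDIA3 forms their disulfide bonds, and the 3 members that take part, CALR, CANX and PDIA3, each had higher levels in both U1_OE libraries. CALR had 1497 and 1489.7 CPM in controls against 2416 and 1865 CPM in U1_OE cells, with a log2 fold change of 0.52 ± 0.17. The control libraries were nearly equal, and U1_OE replicate 1 was the higher of its pair. PDIA3 had 836 and 859 CPM with the empty vector against 1097 and 990.4 CPM under U1 overexpression (0.30 ± 0.13). CANX, the membrane-bound lectin, showed the smallest difference of the 3, 0.19 ± 0.13 on the log2 scale, without overlap of the groups. The 3 genes share exons with neighbours on the opposite strand, and counting is not stated to use strand.

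PDIA4 and HYOU1 had the largest fold changes among the chaperones with all 4 libraries, an order that rested on single libraries. Without U1_OE replicate 1 the log2 fold change of PDIA4 was 0.39, below the 0.51 of HYOU1 and the 0.44 of HSP90B1, and without U1_OE replicate 2 SERPINH1 (0.70) was level with HYOU1 (0.69). PDIA4, a disulfide isomerase of the BiP complex, had control levels of 192 and 204 CPM against 346 and 258 CPM in U1_OE, with a log2 fold change of 0.61 ± 0.18. HYOU1, the large Hsp70-like protein that exchanges nucleotide on BiP and the gene with 2 copies of ERSE-II, had 73.9 and 78.4 CPM in controls against 123 and 108 CPM in U1_OE cells (0.60 ± 0.14). In both genes every U1_OE library was above every control library. PDIA6, an isomerase that works with BiP, had 324 and 329.8 CPM with the empty vector against 524 and 402 CPM under U1 overexpression (0.50 ± 0.17). DNAJB11, a J-domain cochaperone that brings clients to BiP, had control levels of 104 and 93.3 CPM against 131 and 129 CPM in U1_OE, with a log2 fold change of 0.40 ± 0.13. MANF, a secreted cofactor of BiP, had 0.25 ± 0.15 on the log2 scale without overlap. Without U1_OE replicate 1 the values of CALR, PDIA6 and MANF were 0.33, 0.31 and 0.16.

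The collagen-linked folding enzymes were less clearly separated. P4HB had 2064 and 2232 CPM in controls against 2384 and 2239 CPM in U1_OE cells, a log2 fold change of 0.11 ± 0.13, with control replicate 2 just below U1_OE replicate 2. SERPINH1 had 1751 and 2006 CPM with the empty vector against 3049 and 1763 CPM under U1 overexpression. U1_OE replicate 1 alone stood out, and U1_OE replicate 2 lay between the controls. Without U1_OE replicate 1 the log2 fold change was -0.078. CRELD2, an ER-resident factor with epidermal growth factor domains, had control levels of 69.7 and 71.4 CPM against 111 and 66.2 CPM in U1_OE. Again U1_OE replicate 1 alone was high, and without it the log2 fold change was -0.081. SDF2L1, a partner of DNAJB11, and DNAJC3, the J protein p58IPK that restrains PERK, overlapped between groups, with 0.12 ± 0.21 and 0.01 ± 0.13 on the log2 scale. DNAJC3 turned to -0.024 with library size alone. DNAJB9, the J protein that recruits BiP to IRE1 and is a strong target of spliced XBP1, went against the rest of the group: it had 72.5 and 61.8 CPM in controls against 55.0 and 46.9 CPM in U1_OE cells, without overlap, and a log2 fold change of -0.40 ± 0.16, or -0.26 without control replicate 1.

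U1_OE replicate 1 was above U1_OE replicate 2 in 14 of 16 chaperones, against 49.3% of all tested genes. The median chaperone, measured from the control mean as log2(CPM + 1), was 0.39 higher in U1_OE replicate 1 and 0.23 higher in U1_OE replicate 2, while the control libraries were 0.02 above and below. Without U1_OE replicate 1, 11 of 16 chaperones were positive with a median of 0.24, and without U1_OE replicate 2 it was 15 of 16 with 0.39. DESeq2 called 4 members without U1_OE replicate 2, CALR, PDIA4, PDIA6 and SERPINH1, all higher, with adjusted p of 0.0132, 0.0135, 0.0389 and 0.0194, against 1.94% of 16606 genes in that fit. Mesenchymal markers moved with the chaperones in part: 12 of 15 had positive values, against 49.3% of all tested genes, with a median log2 fold change of 0.31. Without overlap of the groups 8 were higher and 0 lower, against 19.7% and 22% of all tested genes. POSTN was called higher by DESeq2 (adjusted p = 0.00938) but not by edgeR (adjusted p = 0.481). The median level of the mesenchymal markers was 315 and 704 CPM for control against 1087 and 585 CPM for U1_OE. Their part in the chaperone levels was not tested.

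The 4 genes of ER-associated degradation, the route by which misfolded proteins are drawn back to the cytosol and ubiquitinated, all had a negative log2 fold change, as did 50.7% of all tested genes. HERPUD1 (chromosome 16, 56932048 to 56944863, plus strand), a membrane scaffold of the ubiquitin ligase complex whose upstream stretch holds ERSE-II and CARE, had 209.5 and 216 CPM with the empty vector against 142 and 154 CPM under U1 overexpression. The U1_OE libraries were both well below the controls, with a log2 fold change of -0.52 ± 0.13 and an adjusted p of 0.459 by edgeR and 0.124 by DESeq2. SEL1L, the adaptor of the same complex, had control levels of 88.9 and 87.4 CPM against 63.1 and 75.9 CPM in U1_OE (-0.34 ± 0.15, and -0.20 without U1_OE replicate 1), again without overlap. SYVN1, the ubiquitin ligase HRD1 itself, had 31.8 and 37.1 CPM in controls against 35.5 and 32.3 CPM in U1_OE cells. The ligase overlapped between groups, with a log2 fold change of -0.02 ± 0.15 that changed sign without control replicate 2 or without U1_OE replicate 2. EDEM1, a mannosidase-like lectin that marks glycoproteins for disposal, had 17.7 and 14.2 CPM with the empty vector against 11.4 and 17.5 CPM under U1 overexpression (-0.14 ± 0.27). U1_OE replicate 1 alone was low there, and without it the value was 0.15.

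The sensors and transcription factors had a median near 0, with 4 positive and 4 negative values. Without overlap of the groups 1 was higher and 2 were lower, against 19.7% and 22% of all tested genes. ERN1, the kinase and RNase that splices XBP1, had control levels of 6.36 and 6.97 CPM against 4.74 and 4.98 CPM in U1_OE, without overlap, with a log2 fold change of -0.45 ± 0.23. EIF2AK3, the kinase PERK, had 21.8 and 22.3 CPM in controls against 15.8 and 20.1 CPM in U1_OE cells (-0.29 ± 0.18). The groups did not overlap, but U1_OE replicate 2 was close to the controls. Without U1_OE replicate 1 the value was -0.12. EIF2AK4, the kinase GCN2 that senses uncharged tRNA, was the one sensor with higher levels in both U1_OE libraries. It had 42.7 and 41.9 CPM with the empty vector against 51.9 and 54.3 CPM under U1 overexpression, with a log2 fold change of 0.33 ± 0.12. ATF6 had 0.04 ± 0.16 on the log2 scale, and overlapped.

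XBP1 (chromosome 22, 28794555 to 28800597, minus strand) had control levels of 143 and 132 CPM against 140.0 and 120.0 CPM in U1_OE. Its groups overlapped, at -0.08 ± 0.14 on the log2 scale, and the sign turned without control replicate 1 or U1_OE replicate 2. ATF4 (chromosome 22, 39519695 to 39522685, plus strand) had 252 and 280.3 CPM in controls against 269 and 285 CPM in U1_OE cells, with overlap and a log2 fold change of 0.06 ± 0.13. GENCODE names 4 pseudogenes after ATF4, so part of its reads could have been assigned to them. ATF5, a related factor under the same translational control, had 20.7 and 12.4 CPM with the empty vector against 20.8 and 15.9 CPM under U1 overexpression, with a log2 fold change of 0.15 ± 0.30, and the libraries of each group differed by more than the groups did. Its sign turned without control replicate 2 or U1_OE replicate 1. CEBPB, a basic leucine zipper partner of ATF4, had a log2 fold change of -0.0014 ± 0.21, which was 0.0090 with RLE size factors.

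All 10 ATF4 targets had a negative log2 fold change, while ATF4 itself had overlapping groups. In 8 of the 10 both U1_OE libraries were below both control libraries, against 22% of all tested genes, though narrowly so in PSAT1 and SHMT2. Lower with an unadjusted p under 0.05 by edgeR were 4 targets, against 4.72% of all tested genes. ASNS (chromosome 7, 97852118 to 97872542, minus strand), asparagine synthetase and a gene with CARE before its RefSeq start, had control levels of 32.4 and 24.9 CPM against 10.7 and 15.6 CPM in U1_OE. The lower control library exceeded the higher U1_OE library by a clear margin. The log2 fold change was -1.12 ± 0.26, with an adjusted p of 0.459 by edgeR and 0.0984 by DESeq2. GENCODE names 4 pseudogenes after ASNS, and 4 after PSAT1. ASNS also shares 1985 of its 4455 exon bases with AC079781.5 on the same strand.

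TRIB3, the pseudokinase that feeds back on ATF4 and CHOP, had 15.3 and 11.9 CPM in controls against 4.25 and 8.39 CPM in U1_OE cells, with no overlap and a log2 fold change of -1.10 ± 0.37, which was -0.68 without U1_OE replicate 1 and -1.68 without U1_OE replicate 2. SLC7A11, which imports cystine for glutathione synthesis, had 7.77 and 2.99 CPM with the empty vector against 1.48 and 2.62 CPM under U1 overexpression, and control replicate 1 stood far above the other three libraries. Its log2 fold change of -1.38 ± 0.59 was -0.52 without that library. SLC3A2, the heavy chain that carries SLC7A11 and other amino acid transporters to the membrane, had control levels of 78.3 and 63.6 CPM against 50.3 and 43.4 CPM in U1_OE (-0.60 ± 0.17), without overlap.

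DDIT3 (chromosome 12, 57516588 to 57521737, minus strand), the pro-apoptotic factor CHOP, had 28.7 and 20.3 CPM in controls against 15.6 and 16.7 CPM in U1_OE cells. Both U1_OE libraries were below the controls, and the log2 fold change of -0.60 ± 0.22 was -0.31 without control replicate 1. DDIT3 shares 355 exon bases with the methionyl-tRNA synthetase gene on the opposite strand. PPP1R15A, which brings the phosphatase that reverses eIF2 phosphorylation and is also known as GADD34, overlapped at -0.08 ± 0.17. CHAC1, a glutathione-degrading enzyme with CARE before its RefSeq start, overlapped too at -0.14 ± 0.29. Both turned positive without control replicate 1, to 0.11 for PPP1R15A and 0.10 for CHAC1, and CHAC1 also without U1_OE replicate 2, to 0.13.

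The enzymes of serine and glycine synthesis differed by unequal amounts. PSAT1, the phosphoserine aminotransferase, had 42.1 and 29.2 CPM with the empty vector against 14.8 and 27.8 CPM under U1 overexpression, with control replicate 2 only just above U1_OE replicate 2. Its log2 fold change was -0.74 ± 0.36, -0.35 without U1_OE replicate 1, -1.27 without U1_OE replicate 2 and -0.43 without control replicate 1. PHGDH, the first enzyme of the pathway, had control levels of 58.0 and 58.9 CPM against 52.5 and 50.6 CPM in U1_OE, a small difference of -0.18 ± 0.12 without overlap. SHMT2, the mitochondrial enzyme that turns serine into glycine, had 117 and 112.5 CPM in controls against 101 and 111.5 CPM in U1_OE cells (-0.11 ± 0.13). Its groups did not overlap, but control replicate 2 was only just above U1_OE replicate 2.

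Control replicate 1 was above control replicate 2 in 9 of the 10 ATF4 targets, against 49.3% of all tested genes. As log2(CPM + 1) from the control mean, the median target was 0.18 above in control replicate 1 and 0.18 below in control replicate 2, and 0.54 and 0.46 below in the U1_OE libraries. Without control replicate 1 the median log2 fold change of the targets was -0.37 with 8 of 10 negative, and without control replicate 2 it was -0.79 with 10 of 10.

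**Figure D3:**
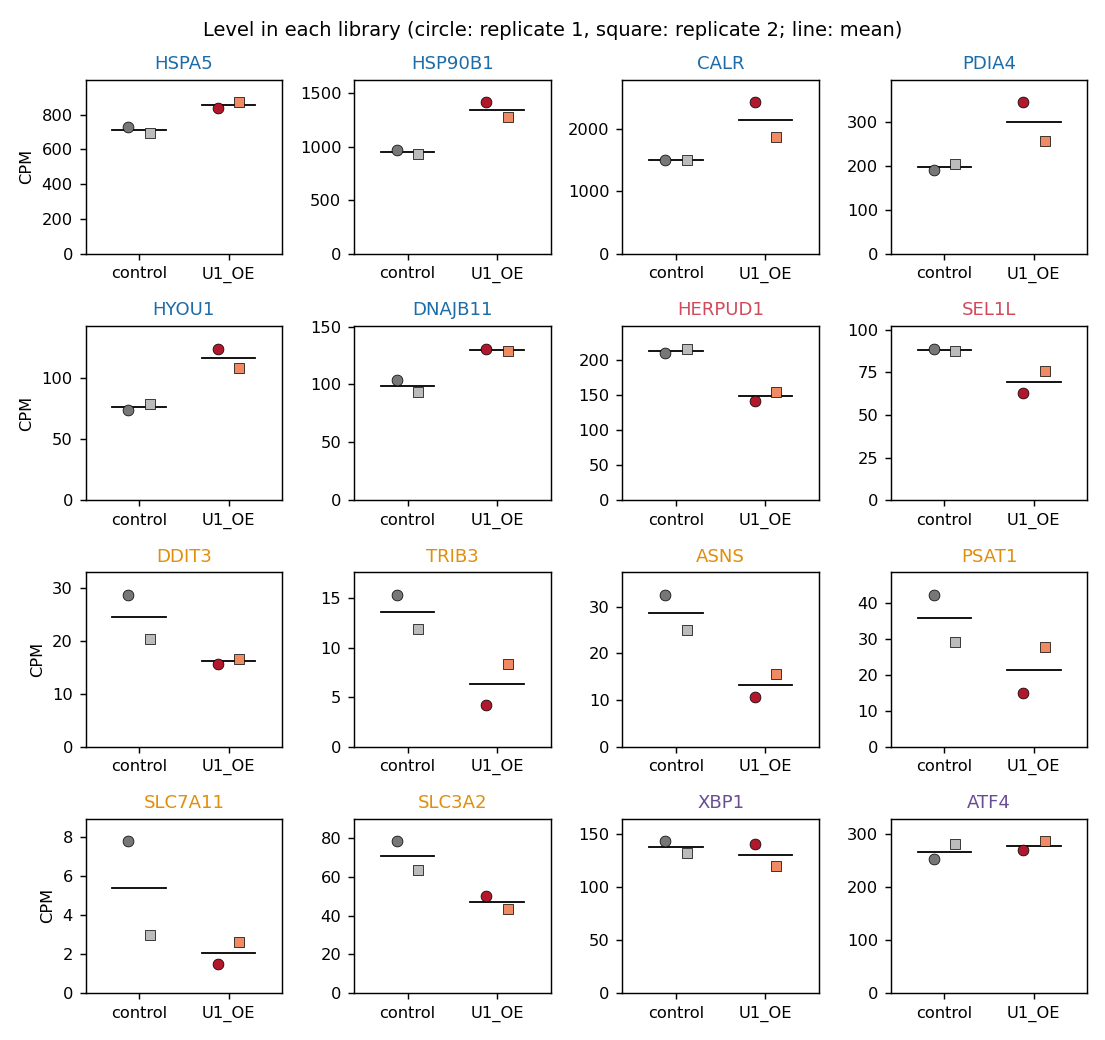
CPM in each library for 16 of the genes, each on its own linear axis from 0, with a line at the mean of 2 libraries, circles for replicate 1 and squares for replicate 2. The 16 were picked without a rule. Chaperones whose groups overlap, DNAJB9, and the ATF4 targets PPP1R15A, CHAC1, PHGDH and SHMT2 are not shown. HSP90B1 and HYOU1 stand higher, and HERPUD1, ASNS and SLC3A2 lower, in both U1_OE libraries, while XBP1 and ATF4 overlap.

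VLDLR-AS1 (chromosome 9, 2421597 to 2643359, minus strand) was close to the limit of detection. It had 3 and 19 counts in the control libraries and 11 and 6 counts in the U1_OE libraries, which overlap. The log2 fold change of -0.32 ± 1.08 was 1.45 without control replicate 2. It shares 738 exon bases with VLDLR, a lipoprotein receptor gene and ATF4 target on the opposite strand, which had 8.77 and 4.81 CPM with the empty vector against 12.9 and 6.40 CPM under U1 overexpression, also with overlap.

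Genes of the same pathways outside the 39 were described from 6 further lists. Of 25 other ER folding factors, 20 had positive values, with a median log2 fold change of 0.18, and 10 were higher and 2 lower without overlap of the groups, against 19.7% higher and 22% lower over all tested genes. QSOX1, a secreted sulfhydryl oxidase, had control levels of 399.5 and 324 CPM against 508 and 628 CPM in U1_OE, and CRELD1, the relative of CRELD2, had 41.1 and 45.7 CPM in controls against 30.9 and 31.8 CPM in U1_OE cells. Of 21 genes of translocation and ER export, 14 were positive, with a median of 0.08, and 9 were higher and 1 lower without overlap, against the same shares over all tested genes. SSR1, of the translocon-associated complex, had 221 and 247 CPM with the empty vector against 358 and 300.1 CPM under U1 overexpression, and the channel subunit SEC61A1 control levels of 417 and 411 CPM against 549.5 and 494 CPM in U1_OE.

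Of 22 other degradation genes, 17 were positive, with a median of 0.06, whereas the 4 degradation members were all negative. DERL3, a derlin, had the lowest log2 fold change of that list, with 2.88 and 4.48 CPM in controls against 1.23 and 1.47 CPM in U1_OE cells. UFD1, a cofactor of the extracting ATPase, had 95.7 and 89.4 CPM with the empty vector against 108 and 122 CPM under U1 overexpression. Of 21 further genes of stress sensing, 15 were positive, with a median of 0.17. EIF2S1, the eIF2 subunit that the stress kinases phosphorylate, had control levels of 63.5 and 64.7 CPM against 79.0 and 80.9 CPM in U1_OE, and NFYA, a subunit of the factor that binds CCAAT in the ER stress element, 15.7 and 18.9 CPM in controls against 22.1 and 23.4 CPM in U1_OE cells.

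The wider list of ATF4 pathway genes was divided in direction. Of 26 tested genes of 28 listed, 14 were positive and 12 negative, with a median of 0.01, and 5 were higher and 4 lower without overlap, both below the shares over all tested genes. DDIT4, an inhibitor of mTORC1, was the one gene of the 6 lists that DESeq2 called, lower in U1_OE with 101 and 119 CPM with the empty vector against 39.8 and 36.9 CPM under U1 overexpression (DESeq2 adjusted p = 9.02e-10; edgeR adjusted p = 0.459). Of 12 cytosolic aminoacyl-tRNA synthetases, 6 were positive and 6 negative, with a median of 0.01. CARS1, for cysteine, had control levels of 55.2 and 56.3 CPM against 30.1 and 41.7 CPM in U1_OE, and TARS1, for threonine, 77.8 and 67.8 CPM in controls against 74.6 and 103 CPM in U1_OE cells. By edgeR 0 genes of the 6 lists were called, and 11 of the 127 tested (8.66%) had an unadjusted p under 0.05, 6 higher and 5 lower, near the 9.08% of all tested genes.

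**Figure D4:**
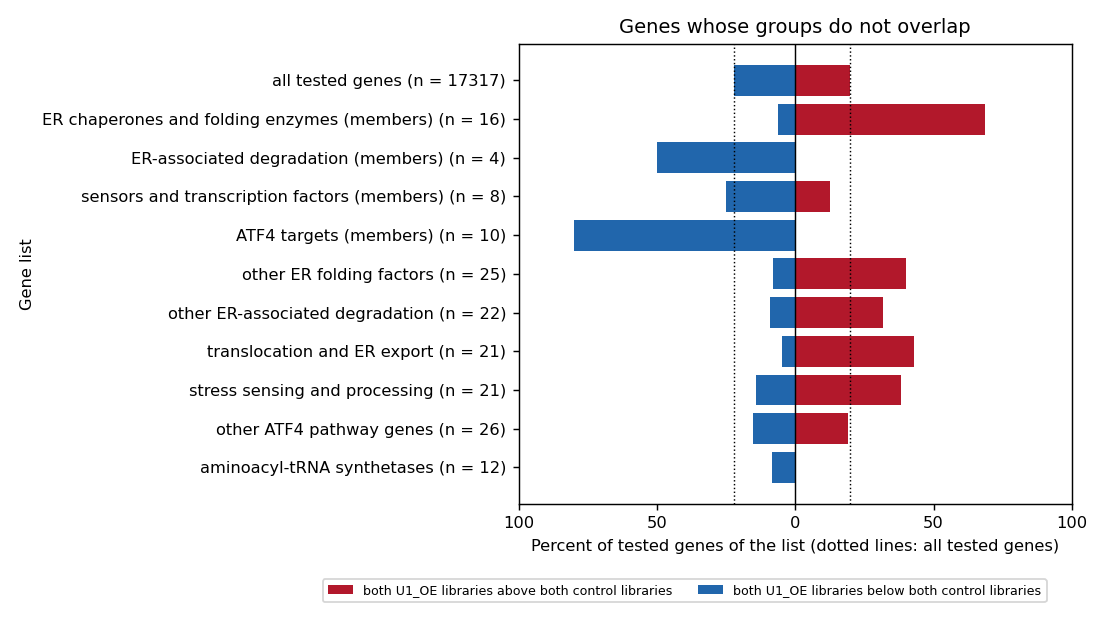
Percent of the tested genes of each list whose U1_OE libraries both lay above (red, right) or both below (blue, left) both control libraries, with dotted lines at the shares over all tested genes (19.7% and 22%). The chaperones reach 11 of 16 on the right and the ATF4 targets 8 of 10 on the left.

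The promoter elements were also set beside the fold changes outside the member list. Of the 9 members with ERSE or ERSE-II, 7 were positive, with a median log2 fold change of 0.26, and HERPUD1 and XBP1 were negative. Over all 16 chaperones 15 were positive, among them PDIA4, PDIA6 and DNAJB11, whose windows hold neither element. DNAJB9, the negative chaperone, holds neither as well. Of 16 other tested genes with either element, 6 were positive and 10 negative, with a median of -0.04. They include ERO1B and SERP1 of the further lists, and ALG12, which shares 168 exon bases with CRELD2 on the opposite strand. SERP1 and EIF2A, both among the 16, also share exon bases, so the 16 are neither all outside the pathways nor all independent. The 4 members with CARE were all negative, with a median of -0.56, but so were all 10 ATF4 targets, of which 3 hold CARE. The 204 other tested genes with CARE had 103 positive and 101 negative values and a median of 0.00469.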

How the data were processed

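The authors deposited 1 table of estimated counts per gene, not normalised, with 25283 genes and a column per library. Per the submitters' processing notes, Trim Galore, STAR, featureCounts and DESeq2 were used with hg38; versions, roles and the origin of fractional values (1.99% of those above 0 lay within 0.01 of a whole number) are not given in the sources used here. In GENCODE v29, 17 of the 39 members have their largest exon overlap with a gene on the opposite strand and 3 with a gene on the same strand. Pseudogenes are named after 6 members. The counts of these members are uncertain to that extent.

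Counts were rounded and tested in R 4.3.3 with edgeR 4.0.16: filterByExpr left 17317 genes, TMM scaled the libraries, and the two-sided quasi-likelihood test compared U1_OE with control. Standard errors were worked back from its F statistic. DESeq2 1.42.0, limma-voom (limma 3.58.1), other scaling and filters, a replicate block and each library left out were alternatives. The procedure was tested on simulated counts. Totals were 16713528 to 19057447 counts, and VLDLR-AS1 and SLC7A11 had the largest standard errors of the members.

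The members and lists were chosen with earlier results of these data known. The naming rule took HSPA5, DDIT3, ATF4, XBP1, VLDLR-AS1, the highest and the 5 members of smallest p in each role, members past 2-fold, and called genes or else the 2 of smallest p in each further list; values of other members were added after they were seen. Motifs were searched as exact letters.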

Additional observations from a re-analysis of the deposited data

How the results depend on the processing

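Under each alternative of edgeR and limma-voom, 0 genes and 0 members were called. DESeq2 called 189 genes, and 80 with the replicate block, which was added after seeing the data, with 0 members each time. With libraries left out in turn the counts ranged from 0 to 322 genes and from 0 to 4 members, where DESeq2 gave 55 and 63 genes without control replicate 1 or 2 and 145 and 322 without U1_OE replicate 1 or 2. Over the edgeR fits with a library left out, the median log2 fold change ranged from 0.24 to 0.39 for chaperones and from -0.49 to -0.14 for degradation genes. It ranged from -0.15 to 0.055 for sensors and factors and from -0.79 to -0.37 for ATF4 targets. With the replicate block these medians were 0.29, -0.26, 0.023 and -0.59, and no member passed the adjusted threshold. Unadjusted p under 0.05 was then met by 4 chaperones instead of 6, by 3 ATF4 targets instead of 4 and by 0 sensors and factors instead of 1. Over all 17317 tested genes it was met by 1072 instead of 1572, so the count fell among all genes as well. Nothing in the labels says what the shared numbers mark. Same-numbered libraries deviated from their group means with a correlation of -0.11 over 17317 genes, and the crossed pairing, also added then, called 0 genes. Log2 fold changes that turned sign with a library left out ranged from -0.17 to 0.58 for ATF5, from -0.10 to 0.18 for ATF6, from -0.19 to 0.24 for CEBPB, from -0.46 to 0.13 for CHAC1, from -0.081 to 0.64 for CRELD2, from -0.033 to 0.078 for DNAJC3, from -0.49 to 0.15 for EDEM1, from -0.24 to 0.11 for PPP1R15A, from -0.066 to 0.36 for SDF2L1, from -0.078 to 0.70 for SERPINH1, from -0.11 to 0.092 for SYVN1, from -1.06 to 1.45 for VLDLR-AS1 and from -0.18 to 0.026 for XBP1. CEBPB also turned with RLE (0.0090), DESeq2 (0.012), limma-voom (0.017) and the replicate block (0.0095). DNAJC3 turned with library size alone (-0.024) and a mean of at least 50 counts (-0.0083). The cause was not tested. These smaller fits take the spread of the single library from the group that kept both.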
